A study of Homo sapiens with 2 samples.

Results

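The TALE genes described here encode 9 homeobox transcription factors of the MEIS, PBX, PKNOX and TGIF families, which serve as DNA-binding partners of HOX proteins or compete for the same sites. They were chosen by family, with earlier results of these data known, out of 19974 protein-coding genes on the autosomes and the X chromosome. The 9 were MEIS1, MEIS2, MEIS3, PBX2, PBX3, PBX4, PKNOX1, PKNOX2 and TGIF1. For each of them, LDB1 peaks were collected if their midpoint fell inside the gene or at most 10 kb outside, and then those within 50 kb. The peaks came from 1 library of NB4 cells without treatment. NB4 is an established human line of acute promyelocytic leukaemia with the PML::RARA fusion. The library was made by CUT&Tag with an antibody against LDB1. CUT&Tag directs a transposase to the antibody's target and tags the DNA beside it. A second library of untreated NB4 cells was made with non-specific IgG, and its level at these genes was not analysed here. With 1 library per antibody, no value has a replicate and no test between samples was possible.

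TALE proteins carry a homeodomain with extra amino acids in a loop between its first helices. MEIS and PKNOX proteins pair with PBX proteins, which moves PBX into the nucleus and lets both join HOX proteins on DNA, while TGIF1 binds like sites and recruits corepressors. In blood, MEIS1 and HOXA9 maintain stem and progenitor cells and drive several myeloid leukaemias. Acute promyelocytic leukaemia, by contrast, is known for low HOXA and MEIS1 expression. LDB1 does not bind DNA itself. It bridges LMO proteins and the GATA and helix-loop-helix factors they hold, at enhancers and promoters. No RNA was measured in this series, so a peak at a TALE gene gives no level of that gene.

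The deposited list held 52765 peaks on chromosomes 1 to 22 and X, and the median peak was 550 bp wide, with quartiles of 408 and 816 bp. It gave a position and a width for each peak and no height or read count. The sequencing depth was therefore unknown, and a gene without a peak is a gene at which none was listed, not one shown to lack LDB1. All positions are hg38 and count from 1. Gene bodies and start sites are those of RefSeq on GRCh38.p14. The gene table gave no exons, so peaks inside a gene are not split into exonic and intronic.

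LDB1 peaks were listed at 7 of the 9 TALE genes, in numbers that differed widely between close relatives. MEIS3 and PKNOX2 had 8 peaks each, TGIF1 had 6, MEIS1 and PBX4 had 5 each, PKNOX1 had 2 and PBX3 had 1. MEIS2 and PBX2 had none within 10 kb. The order depended on narrow peaks. With the widest 50% of all peaks only, MEIS1 had 5, PKNOX2 and TGIF1 had 4 each, MEIS3 had 3, PBX4 had 2, and PBX3 and PKNOX1 had 1 each. Counting all peaks, each of the MEIS and PBX families held a gene with at least 5 peaks and a gene with none.

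The share with a peak, 77.8%, lay near the background of 70.1% of all protein-coding genes, and its exact Clopper-Pearson 95% interval ran from 40.0 to 97.2%, counting error only. Long genes hold more peaks by their length. Of the 4 TALE genes of 100 kb or more, 3 had a peak, beside 84.1% of all protein-coding genes of that length. Of the 5 shorter TALE genes, 4 had one, beside 67.3% of the shorter protein-coding genes. The 9 genes had a median of 5 peaks, where the median over all protein-coding genes was 1 (quartiles 0 and 3). The latter median was 2 (quartiles 1 and 5) for genes of 100 kb or more and 1 (quartiles 0 and 3) for shorter genes. Of the 35 peaks, 22 lay in a gene body and 13 outside it. By the gene body alone 7 of the 9 genes had a peak, beside 54.5% of all protein-coding genes. The median of the 9 then fell to 1. As 54.5% of all protein-coding genes had a peak in the body, their median by the body was at least 1 too.

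**Figure D1:**
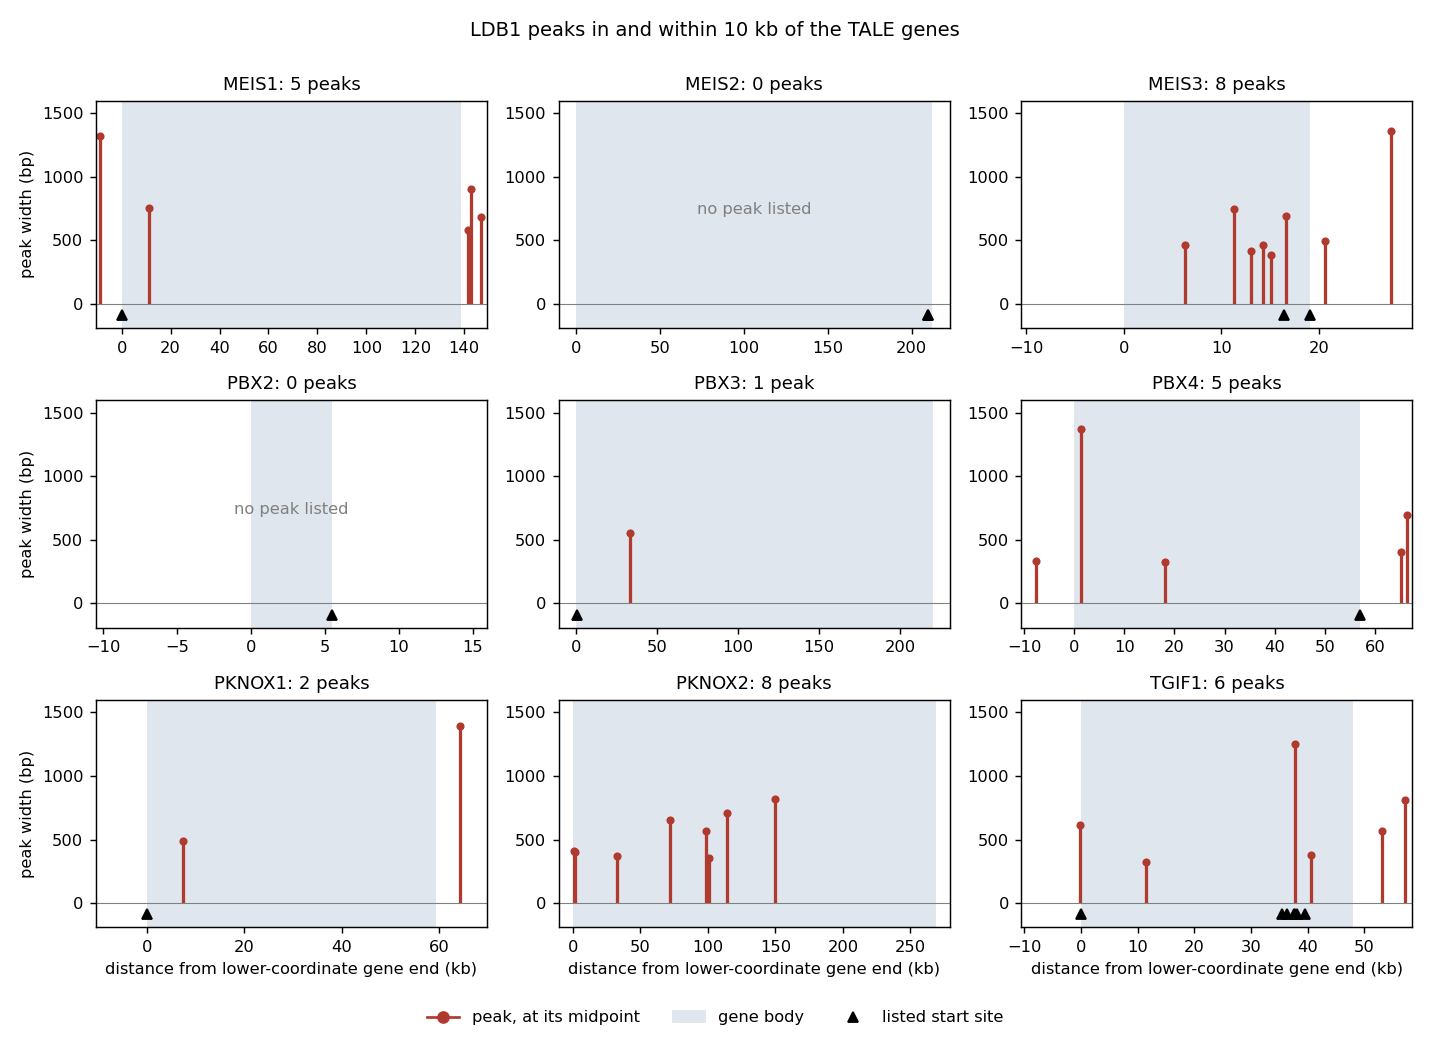
LDB1 peaks in and within 10 kb of each TALE gene. The x axis is the distance in kb from the lower-coordinate end of the gene, with its own scale in each panel, the y axis is peak width in bp, the shaded area is the gene body and black triangles are start sites listed by RefSeq (none for PKNOX2). Peaks cover 4 of the 7 listed starts of TGIF1 and the inner start of MEIS3, and stand outside MEIS1 on either side. They spread through the lower-coordinate part of PKNOX2 and are missing at MEIS2 and PBX2.

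**Figure D2:**
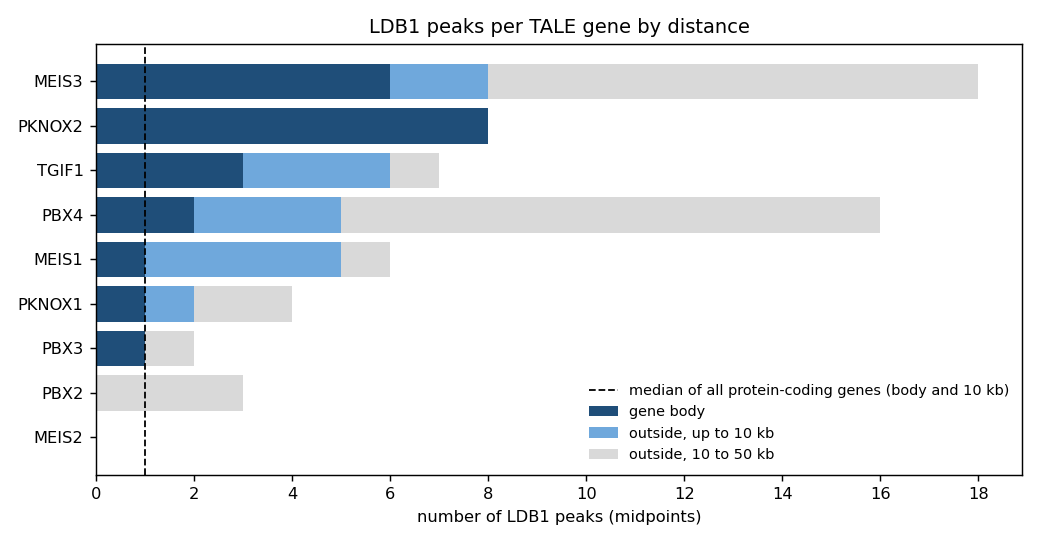
Number of LDB1 peaks per TALE gene, split into the gene body, up to 10 kb outside and 10 to 50 kb outside. The dashed line is the median of 1 peak over all protein-coding genes for the body and 10 kb. MEIS3 and PKNOX2 reach 8 peaks within 10 kb, and MEIS2 has none at any of these distances.

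TGIF1 had LDB1 peaks over 4 of its 7 listed start sites. TGIF1, on chromosome 18 (3412009 to 3459978, forward strand), encodes a repressor that competes at retinoid X receptor sites and holds back SMAD-dependent transcription. A peak of 616 bp (chromosome 18, 3411516 to 3412131) covered the first listed start, with its midpoint 186 bp before it. The widest peak of TGIF1, 1253 bp (3449192 to 3450444), lay inside the gene and covered 3 further listed start windows, its midpoint 111 bp from the nearest start. A peak of 382 bp lay 921 bp from the next start, without touching its window. The other TGIF1 peaks were 327 bp inside the gene, and 570 and 811 bp at 5.10 and 9.20 kb beyond its end, where RefSeq lists the long non-coding genes LOC105371965 and, for the farther peak, GAPLINC as well. A non-coding gene, LOC124904237, also spans the 1253 bp peak, so that peak is not assigned to TGIF1 alone.

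Of the 7 start windows that RefSeq lists for TGIF1, each from 250 bases before a start to 50 bases from it onward, LDB1 peaks covered 4 in full and touched none of the other 3. The first window below is the one under the 616 bp peak, and the second is the one of the 3 under the 1253 bp peak with a match to the motifs capitalised here. Both are printed 5′ to 3′ on the strand of the gene, from RefSeq on GRCh38.p14. Capitals mark matches on either strand to TGACAG (the site of MEIS, PKNOX and TGIF proteins), TGATNNAT (PBX with HOX), GATAA (GATA factors) or CAGCTG (an E-box form that basic helix-loop-helix factors bind).

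TGIF1 first start, chr18:3411759-3412058, forward strand: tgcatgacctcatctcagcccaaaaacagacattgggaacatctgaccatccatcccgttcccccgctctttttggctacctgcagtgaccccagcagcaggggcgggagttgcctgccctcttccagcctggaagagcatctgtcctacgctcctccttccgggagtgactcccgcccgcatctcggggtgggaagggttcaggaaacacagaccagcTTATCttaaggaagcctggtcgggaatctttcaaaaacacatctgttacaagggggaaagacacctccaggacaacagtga

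TGIF1 inner start, chr18:3449922-3450221, forward strand: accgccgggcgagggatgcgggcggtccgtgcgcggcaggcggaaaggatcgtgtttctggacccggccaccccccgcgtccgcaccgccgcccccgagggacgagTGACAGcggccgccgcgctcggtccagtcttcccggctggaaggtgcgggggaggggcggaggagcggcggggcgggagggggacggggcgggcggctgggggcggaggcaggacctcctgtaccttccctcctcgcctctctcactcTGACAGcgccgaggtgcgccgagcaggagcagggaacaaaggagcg

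The first start window held 1 GATAA match, on the opposite strand, beginning at position -31 (the start is position 1 and the base before it is -1). It also held 3 matches to CANNTG, the general E-box, which takes in CAGCTG and is left in lower case. The inner window held 2 TGACAG matches, at positions -144 and 5, and none of the other motifs. These are short words and are common. GATAA was found in 22.7% of the 35116 start windows of all genes in the table, TGACAG in 15.8%, CAGCTG in 17.9%, TGATNNAT in 7.40% and CANNTG in 68.7%. Member start windows without a peak held matches too, such as TGACAG at PBX3 and TGATNNAT at MEIS2, while that of MEIS1 held none. A match shows only that the letters stand in the window, under a peak or not.

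The share of start sites under a peak lay near the background. Among the 8 TALE genes with listed start windows, 2 (TGIF1 and MEIS3) had a window touched by a peak, beside 28.0% of protein-coding genes with a listed window. Of the 16 windows, 5 were touched, or 31.3%, where the share of all 22132 protein-coding start windows was 24.3%. The 5 share 3 peaks, since 3 windows of TGIF1 lie under 1 peak. By the ends of the gene body, TGIF1 was the 1 TALE gene of 9 with a peak midpoint within 1 kb, which is 11.1% (exact 95% interval 0.281 to 48.2%), beside 37.6% of all protein-coding genes. The interval holds the background share, but it gives counting error only. The 9 genes were chosen by family and not drawn at random, so no test is drawn from it. PKNOX2, PBX4 and MEIS3 fell just outside that limit, with midpoints 1.08, 1.40 and 1.48 kb from an end.

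**Figure D3:**
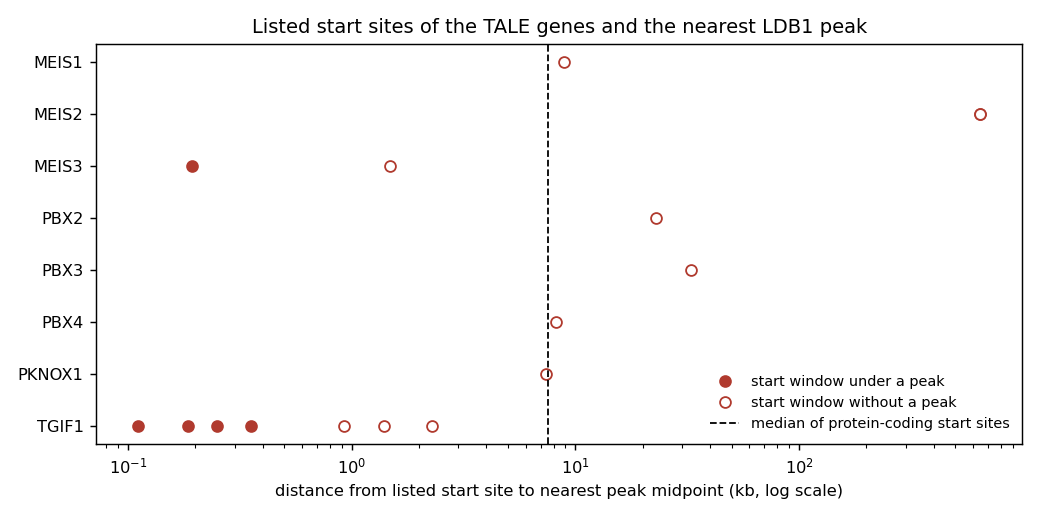
Distance in kb, on a log axis, from each start site that RefSeq lists for a TALE gene to the nearest LDB1 peak midpoint; PKNOX2 has no listed start. Filled points are starts whose window lies under a peak, open points are the others, and the dashed line is the median of all protein-coding start sites. All 7 starts of TGIF1 lie within 2.28 kb of a midpoint, and both starts of MEIS2 lie 646 kb away.

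MEIS1, the partner of HOXA9 in leukaemia, had LDB1 peaks outside its body more than in it. The gene lies on chromosome 2 (66435125 to 66573869, forward strand). Its widest peak, 1318 bp (66425566 to 66426883), lay 8.90 kb before the start, in the antisense non-coding gene MEIS1-AS3. A single peak, of 752 bp (66446073 to 66446824), lay in the body, 11.3 kb after the start. A group of 3 peaks of 579, 901 and 683 bp spanned 5.73 kb beyond the end of the gene, with midpoints 2.79, 4.05 and 7.89 kb from it, in the non-coding gene LINC01798. The 127 kb of the body after the 752 bp peak's midpoint held no peak. All 5 were at least as wide as the median of all peaks, and no peak touched the listed start window. At 50 kb a sixth peak joined, of 391 bp and 43.6 kb before the start.

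The MEIS1 peaks stood in a stretch with few others. The gene body and its 10 kb margins held 3.15 peaks per 100 kb, and the next 1 Mb to either side held 11 peaks, or 0.550 per 100 kb. The 1 other protein-coding gene there had no peak within 10 kb.

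MEIS3, the least studied MEIS gene, held 8 LDB1 peaks in a close run. The gene covers 19.1 kb of chromosome 19 (47403124 to 47422233, reverse strand), and 6 peaks of 385 to 746 bp lay in its body. Its 8 peaks formed a run of 22.1 kb in which no peak was more than 10 kb from the next. Counting single peaks as runs, 3.34% of such runs in the genome held 8 or more peaks and 31.7% held 2 or more. A run of 37.7 kb that reached into PBX4 also held 8. At MEIS3, a peak of 688 bp (47419377 to 47420064) covered the inner of the 2 listed start windows in full. Its midpoint lay 194 bp from that start. The outer start had its nearest peak 1.48 kb before it, 495 bp wide. The widest of the 8, 1362 bp (47429880 to 47431241), lay 8.33 kb before the outer start inside SLC8A2, which encodes a sodium-calcium exchanger, so it is not particular to MEIS3. The window under the 688 bp peak is printed as above.

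MEIS3 inner start, chr19:47419478-47419777, reverse strand: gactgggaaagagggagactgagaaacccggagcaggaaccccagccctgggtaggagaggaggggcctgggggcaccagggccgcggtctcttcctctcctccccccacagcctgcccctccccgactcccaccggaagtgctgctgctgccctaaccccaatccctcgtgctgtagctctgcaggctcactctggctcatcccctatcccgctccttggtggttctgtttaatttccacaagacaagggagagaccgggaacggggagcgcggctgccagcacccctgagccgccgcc

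It held none of the 5 motifs searched, CANNTG included. Its G and C content was 65.7%, against 55.7 and 75.3% in the TGIF1 windows printed above.

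MEIS3 lies in a peak-rich part of chromosome 19. Its body and margins held 20.5 peaks per 100 kb, and the flanking 1 Mb to either side held 157 peaks, or 7.85 per 100 kb. Of the 52 other protein-coding genes there, 48 had a peak within 10 kb. The part of the region in the count of MEIS3 was not tested.

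MEIS2, which directs limb, heart and brain development and is expressed in some leukaemias, had no LDB1 peak within 50 kb. The gene is longer than MEIS1, 212 kb on chromosome 15 (36889204 to 37101311, reverse strand). The nearest midpoints lay 842 kb below and 644 kb above it. The stretch between these peaks was 1.70 Mb long (36047451 to 37744885) and held 1 other protein-coding gene, CDIN1. Of 52742 stretches between neighbouring peaks, 52 were at least as long, where the median was 9.56 kb. The flanking 1 Mb to either side of MEIS2 held 2 peaks in all, or 0.100 per 100 kb.

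The PBX genes, whose products bind DNA together with HOX, MEIS and PKNOX proteins, had 5 peaks at PBX4, 1 at PBX3 and none at PBX2. PBX3, which is often co-expressed with HOXA genes in myeloid leukaemia, had a single peak of 551 bp (chromosome 9, 125780776 to 125781326) in a body of 220 kb, 32.9 kb from its listed start. This gave 0.417 peaks per 100 kb in and around PBX3, below 2.10 per 100 kb in the flanking 1 Mb to either side, where 15 of 17 other protein-coding genes had a peak within 10 kb. Of all protein-coding genes of 100 kb or more, 84.1% had as many peaks or more. At 50 kb a second peak of 457 bp came in, 21.9 kb beyond the end.

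PBX4, the PBX gene known mainly from testis, had 5 peaks, of which 2 lay in its body (chromosome 19, 19561713 to 19618687, reverse strand). The widest, 1371 bp (19562426 to 19563796), lay 1.40 kb inside the end of the gene, 55.6 kb from the start. The other peak in the body was 325 bp wide, the narrowest of the 35, and 99.4% of all peaks were at least as wide. A peak of 336 bp lay 7.52 kb beyond the end. The remaining 2, of 407 and 696 bp at 8.19 and 9.40 kb before the start, lay inside LPAR2, which encodes a lysophosphatidic acid receptor. PBX4, like MEIS3, is on a peak-rich stretch of chromosome 19, with 6.50 peaks per 100 kb in and around it and 4.40 per 100 kb in the flanks.

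PBX2, the PBX gene of most tissues, had no peak in its 5.47 kb body or within 10 kb of it (chromosome 6, 32184733 to 32190202, reverse strand). It lies in the major histocompatibility region, in a stretch of 428 kb without a peak that holds 11 protein-coding genes, PBX2 among them. Only 10 of 83 other protein-coding genes in the flanking 1 Mb to either side had a peak within 10 kb. The peak list held 83 peaks on alternate contigs of chromosome 6, copies of this region among them, and whether any belongs to PBX2 was not analysed. Its absence from the list is therefore uncertain. At 50 kb it took in 3 peaks, of 376, 656 and 1211 bp, inside PRRT1, PPT2 and EGFL8.

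The PKNOX genes, whose products pair with PBX as MEIS proteins do, differed in number and in placement. PKNOX2, on chromosome 11 (125164751 to 125433389), had 8 peaks, all in its body of 269 kb and none in the margins or within 50 kb outside. All 8 lay in the 150 kb next to the lower-coordinate end, and the 119 kb beyond the last held none. They were 357 to 819 bp wide, with a median of 489 bp, so no single peak was broad. The first pair, of 412 and 404 bp, lay 1.08 and 1.86 kb inside that end, 373 bp apart. Another pair, of 566 and 357 bp, lay in the antisense non-coding gene PKNOX2-AS1. The strand of PKNOX2 and its start sites were not listed in the tables used, and the peaks are placed by coordinate only. Among protein-coding genes of 100 kb or more, 14.2% had 8 or more peaks. The density of 2.77 per 100 kb was below the 3.65 of the flanks.

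PKNOX1, known in mice as a gene needed for early embryos and as a tumour suppressor, had 2 peaks (chromosome 21, 42974562 to 43033931, forward strand). A peak of 489 bp lay in the body, 7.36 kb after the start. The other was the widest of the 35 peaks at the 9 genes, 1390 bp (43038155 to 43039544), 4.92 kb beyond the end, with no other protein-coding gene nearer to it. The region around PKNOX1 was rich in peaks, with 7.25 per 100 kb in the flanks, while the gene and its margins held 2.52.

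The peaks at TALE genes were of ordinary width. Their median was 570 bp (quartiles 410 and 749 bp, range 325 to 1390 bp), beside 550 bp over all peaks. A width of 1 kb or more was reached by 5 of the 35 (14.3%), beside 16.5% of all peaks. These 5 were the widest peaks of PKNOX1, PBX4, MEIS3, MEIS1 and TGIF1. Of them 3 lay outside the gene body, 1 in TGIF1 over its inner starts and 1 near the end of PBX4.

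In 4 of the 9 genes the peak density was above that of the flanking 1 Mb to either side, namely MEIS1, MEIS3, PBX4 and TGIF1. The same held for 48.5% of all protein-coding genes. TGIF1 had 8.83 peaks per 100 kb in and around the gene and 1.90 in the flanks, where all 9 other protein-coding genes had a peak within 10 kb. The median density over the 9 genes was 2.77 peaks per 100 kb, beside 2.30 over all protein-coding genes (quartiles 0 and 6.94).

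**Figure D4:**
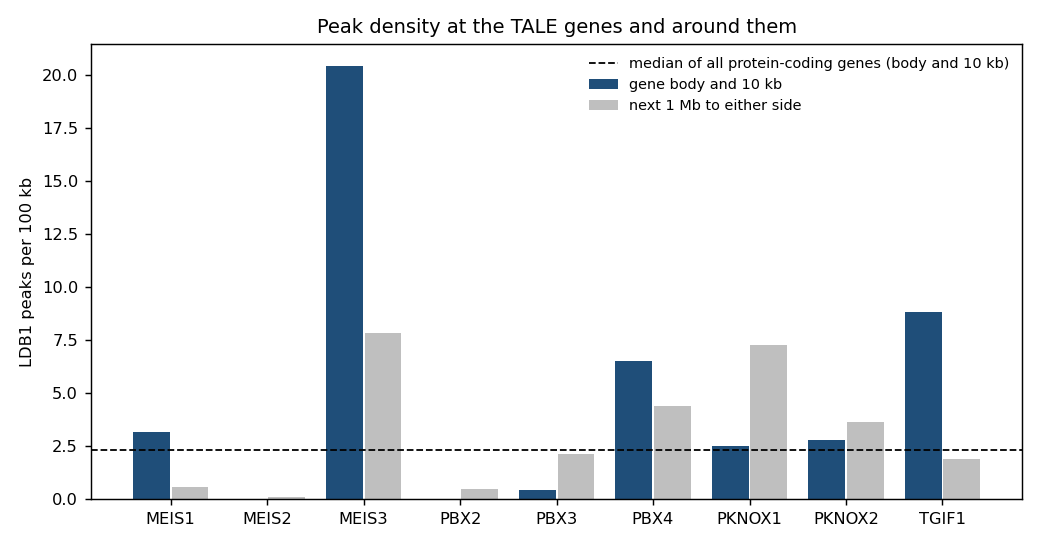
LDB1 peaks per 100 kb in the body and 10 kb margins of each TALE gene (blue) and in the next 1 Mb to either side (grey). The dashed line is the median of 2.30 per 100 kb over all protein-coding genes for the body and margins. MEIS1, MEIS3, PBX4 and TGIF1 exceed their flanks, and MEIS2 has nearly none in either.

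The wider window of 50 kb added peaks that mostly lay in or nearest to other protein-coding genes. It raised the sum from 35 to 64 peaks and the genes with a peak to 8 of 9, beside 86.1% of all protein-coding genes. Of the 29 added peaks, 27 lay in or nearest to another protein-coding gene. The widest was 3400 bp (chromosome 19, 47375139 to 47378538), inside the helicase gene DHX34, with its midpoint 26.3 kb from MEIS3. The additions at MEIS3 lay in DHX34 and SLC8A2. Those at PBX4 lay in or next to TSSK6, NDUFA13, YJEFN3, CILP2, GMIP and ATP13A1. PKNOX1 gained a peak of 351 bp, nearest to ERVH48-1, and a peak of 393 bp inside CBS. TGIF1 gained a peak of 871 bp inside DLGAP1. Within 10 kb, 3 of the 35 peaks lay in another protein-coding gene, the SLC8A2 peak of MEIS3 and the LPAR2 pair of PBX4. The 10 kb limit fell within close groups of peaks at PBX4. Just inside it was a peak of 696 bp at 9.40 kb, and just outside were peaks of 437 bp at 10.4 kb, nearest to GMIP, and of 1611 bp at 11.5 kb, nearest to CILP2. At TGIF1 and MEIS1 the farthest peaks inside were at 9.20 and 8.90 kb.

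Genes that work with the TALE factors were described by the same count. Of 10 genes of their HOX partners, all had a peak within 10 kb, with a median of 5.5. HOXA5 had 6 with the widest at 1955 bp, and HOXA9, HOXA10 and HOXA11 shared a widest peak of 1557 bp. HOX genes of a cluster lie within 10 kb of each other and share peaks, so these counts are not separate. Of 8 further TALE homeobox genes, 7 had a peak, with a median of 4, and TGIF2, the closest relative of TGIF1, had none. Among them IRX4, of the Iroquois family, held 10 peaks of up to 2381 bp. MKX, a regulator of tendon, held 2 of up to 1726 bp, and IRX2 held 8 of up to 1593 bp.

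Genes of the TGIF and SMAD corepressor circuit had a peak at all 10, with a median of 2. The widest were at SKI (9 peaks, up to 1711 bp) and CTBP1 (12 peaks, up to 1603 bp), which encode corepressors, and at SKIL (2 peaks, up to 1531 bp), a relative of SKI. Of 12 genes of the MEIS and HOX leukaemia programme, 10 had a peak, with a median of 2. MYB, a progenitor factor, had a peak of 3295 bp, CCND3, a cyclin D gene, had 17 peaks of up to 1906 bp, and MEN1, which encodes the menin scaffold, had 5 of up to 1793 bp. FLT3, a receptor gene known as a target of MEIS1, and HIF1A had none. All 4 shares stand beside the 70.1% of all protein-coding genes, and no difference between these lists and the 9 TALE genes was tested.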

How the data were processed

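The members and the 4 other gene lists were chosen with earlier results of these data known. Per the file headers, the deposited table of LDB1 peaks gave chromosome, start, end and length in bp, from 1 library. The submitters' processing notes name Bowtie2 2.4.1, MACS2 2.0.10 and hg38. Not given in the sources used here were the threshold, whether IgG served as a control, and how duplicates were handled. Depth is unknown. A deeper library or a laxer threshold lists more and wider peaks, and transposase cuts in open chromatin can be listed as peaks.

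Peak midpoints were counted in windows around RefSeq gene bodies (GRCh38.p14) with Python 3.11.15, numpy 2.4.6, pandas 2.3.3 and scipy 1.17.1, and the counting was tested on simulated peaks. Windows of 300 bases around start sites were listed for 79.2% of protein-coding genes. Named genes were every member, the protein-coding genes in or nearest to their peaks, and from each other list the members with the 3 widest peaks and up to 3 without a peak. Some genes of the lists and the rule were left out and are not reported here. The planned comparison of homeodomains was not run, because no protein sequences were used here.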

Additional observations from a re-analysis of the deposited data

How the results depend on the processing

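No paired analysis was possible because there was 1 library per antibody. The number of TALE genes with a peak was 6 to 8 under every alternative tried. Other values moved by more than 1.5 times. The 35 peaks became 20 with the widest 50% of all peaks only, 7 with the widest 25%, 22 with the gene body only and 64 at 50 kb. The median of 5 peaks per gene became 2, 1 and 1 under the first 3 of these. The single gene with a peak at a gene end became 0 with the widest 25%, 2 with the start site only, 3 with any overlap instead of the midpoint and 4 within 2.5 kb. The 37.6% of all protein-coding genes belongs to the midpoint within 1 kb. No share of all genes is given for these 4 settings, so the counts cannot be set against a background. Alternatives for the other lists, the flanks, the start window overlap and the median peak width were not planned but added after the data were seen. HOX partner genes with a peak became 6 with the widest 25%, and TGIF and SMAD corepressor genes became 6 with that setting and 6 with the gene body only. By the gene body the share of all protein-coding genes was 54.5%. For the widest 50 or 25% of peaks no share of all genes is given, and the 70.1% for all peaks is not its match. Joining peaks 1 kb or less apart, flanks of 500 kb or 2 Mb, a gene end within 500 bp and a start window overlap of at least 150 bases moved none of the sums, medians or list counts past 1.5 times, though the 8 peaks of MEIS3 joined into 5. Height, depth and the IgG level were not analysed, so a listed peak here has a position and a width and no measure of strength.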
